A study of Mus musculus with 9 samples.

Results

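The miR-199 and miR-214 microRNAs come from 4 hairpins of the mouse genome and are known for their high expression in fibroblasts and other mesenchymal cells. They were examined in a microRNA sequencing table of 621 mature miRNAs, in which 4 rows have a name that starts with miR-199a-, miR-199b- or miR-214-. These rows are mmu-miR-214-5p, mmu-miR-214-3p, mmu-miR-199a-3p and mmu-miR-199b-5p, written below without the species prefix, and mmu-miR-199a-5p was not analysed here. The table holds 9 libraries from the left ventricle of male C57BL/6J mice aged 6 months. There were 3 libraries each of the CaNrf2-High line (TG-High), the CaNrf2-Low line (TG-Low) and non-transgenic mice (NTG), numbered 0, 1 and 2 by the labels. All 3 groups share strain, sex, age and tissue, and no treatment is given. The labels do not give the promoter or the cell type that drives the transgene, nor whether each library came from a separate mouse, so the p-values below cover the spread between libraries alone, and that spread may be technical. The study compared the transgenic lines together (TG) with NTG.

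A miRNA hairpin is cut into a 5p and a 3p arm, and the arm that enters Argonaute silences messenger RNAs that pair with its seed, bases 2 to 8. miR-214 and miR-199a-2 lie in 1 long non-coding RNA, Dnm3os, which is known in mouse for its role in mesenchymal tissue and skeletal development. In mouse hearts, miR-214 is known to limit calcium overload after ischaemia, miR-199b is known to act on calcineurin and NFAT signalling in hypertrophy, and miR-199a-3p is known to promote division of rodent cardiomyocytes. Nrf2 is the transcription factor that switches on antioxidant genes. Left ventricle is a mixture of cells, so more cells of a type and more of a miRNA in each cell cannot be told apart, and the fibroblast origin of these counts was not measured.

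The mature sequences of 3 of the 4 rows were found in RefSeq (build GRCm38.p6) and are shown because their seeds separate the miRNAs. Capitals mark the seed.
miR-214-5p: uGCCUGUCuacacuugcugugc
miR-214-3p: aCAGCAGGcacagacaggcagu
miR-199a-3p: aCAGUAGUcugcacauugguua

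The 3 seeds differ from each other, so the arms of miR-214 form no seed family with miR-199a-3p. In RefSeq the seed of miR-214-3p is shared by 1 other mature miRNA, miR-761, which was not analysed here. The seed of miR-214-5p is shared by 0 other names. miR-199b-3p has the whole sequence of miR-199a-3p.

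The hairpins are shown because they decide what a row can measure. Capitals mark the mature arms that RefSeq names.
Mir214: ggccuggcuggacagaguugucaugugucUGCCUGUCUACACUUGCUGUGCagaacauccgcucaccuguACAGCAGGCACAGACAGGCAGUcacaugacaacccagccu
Mir199a-2: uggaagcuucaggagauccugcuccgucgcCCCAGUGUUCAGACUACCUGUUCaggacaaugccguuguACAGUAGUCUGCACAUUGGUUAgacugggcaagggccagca
Mir199a-1: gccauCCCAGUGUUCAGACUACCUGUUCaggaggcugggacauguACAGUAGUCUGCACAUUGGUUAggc
Mir199b: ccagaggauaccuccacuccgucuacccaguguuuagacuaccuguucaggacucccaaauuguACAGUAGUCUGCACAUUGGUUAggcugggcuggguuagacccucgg

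In build GRCm38, Mir214 lies at chr1:162223368-162223477 and Mir199a-2 at chr1:162217814-162217923, both on the plus strand, with 5444 bases between them. Both overlap exons of Dnm3os and lie in the gene Dnm3 on the opposite strand, outside its exons. Mir199b lies at chr2:32318460-32318569 on the plus strand, opposite Dnm1, and Mir199a-1 at chr9:21496495-21496564 on the minus strand, opposite Dnm2. Both are also outside the exons of the gene they face. The arms of miR-214 occur in 1 hairpin, whereas the sequence of miR-199a-3p occurs in 3 of these hairpins. The sources used here do not say how reads that match several hairpins were counted, so the row of miR-199a-3p may not measure the whole mature miRNA. Some other miRNAs have an opposite arm named with a hairpin number, as in miR-26a-2-3p. Among these, TG-High replicate 0 held 22 counts of miR-26a-5p, 9 of miR-29b-3p and 5 of miR-30c-5p. It held 4906 of miR-92a-3p and 5320 of miR-128-3p. The cause of these levels was not tested. In each of the 4 rows, 0 other rows of the table carried near-identical counts (within 0.03 on the log2 scale in every library).

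Total counts per library ranged from 3620465 in TG-High replicate 2 to 11695744 in TG-High replicate 1. These totals are sums over all 621 rows, and rows with near-identical counts are both included. In TG-High replicate 0, for example, miR-126b-5p held 1071602 counts and miR-126a-3p 1071565. The 4 rows together held 0.0812% to 0.112% of the counts in TG-High, 0.0752% to 0.0950% in TG-Low and 0.0673% to 0.0965% in NTG. Levels are given in CPM, counts scaled to a common library total, after trimmed mean of M values (TMM) scaling. All 4 rows were above the minimum count for testing, which 509 of the 621 rows passed. By these counts miR-199b-5p was the most abundant and miR-199a-3p the least abundant of the 4 in every library. The place of miR-199a-3p depends on how reads that match several hairpins were counted. Among the 621 miRNAs miR-199b-5p had ranks from 66 to 84, miR-214-3p from 84 to 112, miR-214-5p from 106 to 147 and miR-199a-3p from 229 to 274. The coefficient of variation between the libraries of a group was 12.1% for miR-214-5p in TG-Low, where counting alone gives at most 2.99%. Counting error came closest to the spread for miR-199a-3p, whose lowest count was 70, in TG-High replicate 2, where counting alone gives 11.95%. Its NTG libraries varied by 5.59%, less than the 9.53% that counting gives in the least counted of them.

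**Figure D1:**
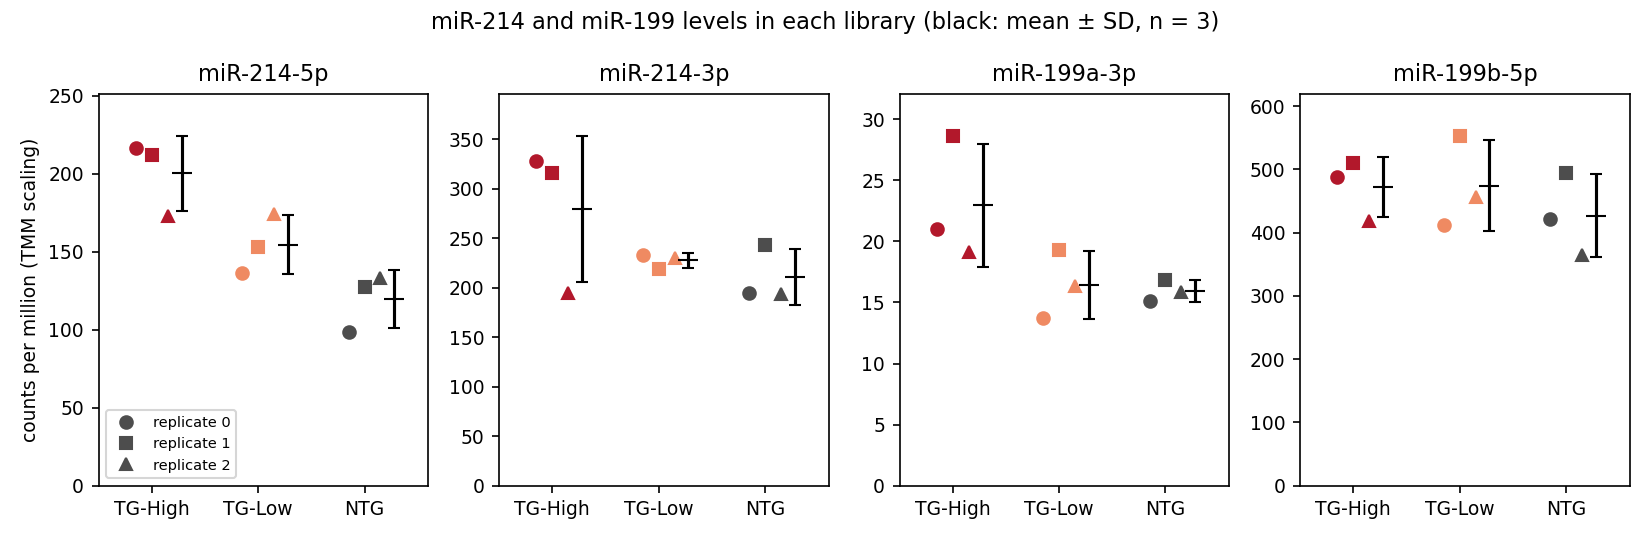
Level of each miRNA (vertical axes, CPM with TMM scaling, from 0) in TG-High, TG-Low and NTG libraries, with symbols for the replicate number and black marks for the mean ± SD of 3 libraries. All 6 transgenic libraries lie above all 3 NTG libraries for miR-214-5p, while the groups overlap for miR-199b-5p.

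miR-214-5p is the 5p arm of miR-214 and was the less abundant arm of the pair in every library. It was at 216, 212 and 173 CPM in TG-High (replicates 0, 1 and 2) and at 137, 153 and 174 CPM in TG-Low, against 98.7, 127 and 133 CPM in NTG. The lowest transgenic library, TG-Low replicate 0, lay just above the highest NTG library, and TG-High and TG-Low overlapped by 1 library each. The means were 200.3 ± 24.1 CPM in TG-High and 155 ± 18.7 CPM in TG-Low, against 120 ± 18.3 CPM in NTG (SD, n = 3 each). That all transgenic libraries exceed all NTG libraries held for miR-214-5p alone among the 4 rows, and for 8.06% of the 509 tested miRNAs.

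In TG-High against NTG, which asks what the High line shows by itself, miR-214-5p rose 1.68-fold, a log2 fold change of 0.74 ± 0.16 (SE, 95% interval 0.38 to 1.11). This passed edgeR's quasi-likelihood test at a Benjamini-Hochberg adjusted p of 0.0118. It was the 1 of 4 rows that passed, where 18.3% of all tested miRNAs passed in this comparison and 8.84% passed and were higher, and it was 36th of 509 by p. DESeq2 also called 1 of the 4 rows, against 16.3% of all rows. The call was lost without TG-High replicate 0 (edgeR adjusted p = 0.0519), TG-High replicate 1 (0.0585) or NTG replicate 0 (0.0588). The log2 fold change then lay between 0.62 and 0.75.

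For TG against NTG, the comparison the submitters made, miR-214-5p had a log2 fold change of 0.57 ± 0.17 (95% interval 0.19 to 0.94), 1.48-fold, and did not pass (edgeR adjusted p = 0.0570). By this test 0 of the 4 rows passed, where 8.64% of tested miRNAs did. Of the 4, 1 row had an unadjusted p under 0.05, as did 157 of all 509 tested miRNAs. DESeq2's Wald test called miR-214-5p (0.56, adjusted p = 0.0249), as it called 13.4% of all rows. The authors' deposited table gives it a log2 fold change of 0.56 with SE 0.18 and an adjusted p of 0.0252. A fit of the 3 groups with the mean of both lines also placed it past the threshold (0.56, edgeR adjusted p = 0.0286), with 75 miRNAs called in place of 44. The edgeR call was also made without TG-Low replicate 0 (adjusted p = 0.0364) or without TG-Low replicate 2 (adjusted p = 0.0491).

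In TG-Low against NTG miR-214-5p had a log2 fold change of 0.37 ± 0.16 (95% interval 0.01 to 0.73, edgeR adjusted p = 0.273). The 3 TG-Low libraries all lay above NTG, as they did for 11.4% of tested miRNAs, and 1.57% passed the test in this line, 0 of the 4 rows among them. By an unadjusted p under 0.05, miR-214-5p alone of the 4 was counted (0.0455), and DESeq2 called 0 of the 4, against 6.38% of the rows it tested. The difference between the lines was itself tested in TG-High against TG-Low, at 0.38 ± 0.16 (95% interval 0.02 to 0.74, edgeR adjusted p = 0.610). Between the lines 1.38% of tested miRNAs passed, 0 of the 4 rows among them. Without adjustment 2 of the 4 had an edgeR p under 0.05, as did 41 of all 509 tested miRNAs. DESeq2 called 0 of the 4 and 5.8% of all rows. That a call was made in TG-High and not in TG-Low therefore does not show that the lines differ.

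**Figure D2:**
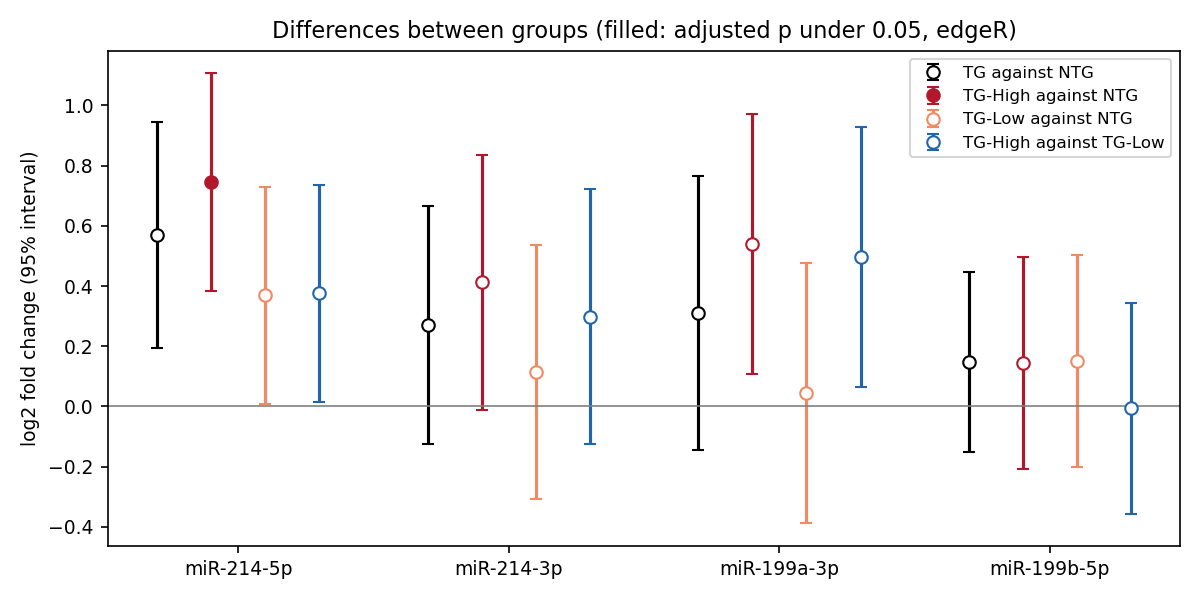
Log2 fold change (vertical axis) of the 4 miRNAs in 4 comparisons, with 95% intervals from edgeR's quasi-likelihood test and filled symbols at an adjusted p under 0.05. The one filled symbol is miR-214-5p in TG-High against NTG at 0.74, and the values of miR-199b-5p lie between -0.01 and 0.15.

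miR-214-3p is the arm described in most work on miR-214, and it shares its hairpin and therefore its primary transcript with miR-214-5p. It was at 329, 316 and 194 CPM in TG-High and at 234, 219 and 231 CPM in TG-Low, against 195, 243 and 193 CPM in NTG. TG-High replicates 0 and 1 were the 2 highest libraries, while TG-High replicate 2, the least deep, lay among the NTG libraries. The means were 280 ± 74.1 CPM in TG-High and 228 ± 7.65 CPM in TG-Low, against 211 ± 28.4 CPM in NTG (SD, n = 3 each). The 3 TG-Low libraries lay close together, inside the NTG range.

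The log2 fold change of miR-214-3p was 0.41 ± 0.19 in TG-High against NTG (95% interval -0.01 to 0.83, edgeR adjusted p = 0.171). It was 0.11 ± 0.19 in TG-Low against NTG (adjusted p = 0.775) and 0.27 ± 0.18 in TG against NTG (adjusted p = 0.332). None of these passed, and TG-High against TG-Low, at 0.30 ± 0.19, did not either (adjusted p = 0.691). TG-High replicate 2 decided the value in that line: without it the log2 fold change against NTG was 0.66 and passed (edgeR adjusted p = 0.0281), and without TG-High replicate 1 it was 0.27 (adjusted p = 0.487). The counting error of TG-High replicate 2 was 3.75%, far below its distance from the other TG-High libraries.

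**Figure D3:**
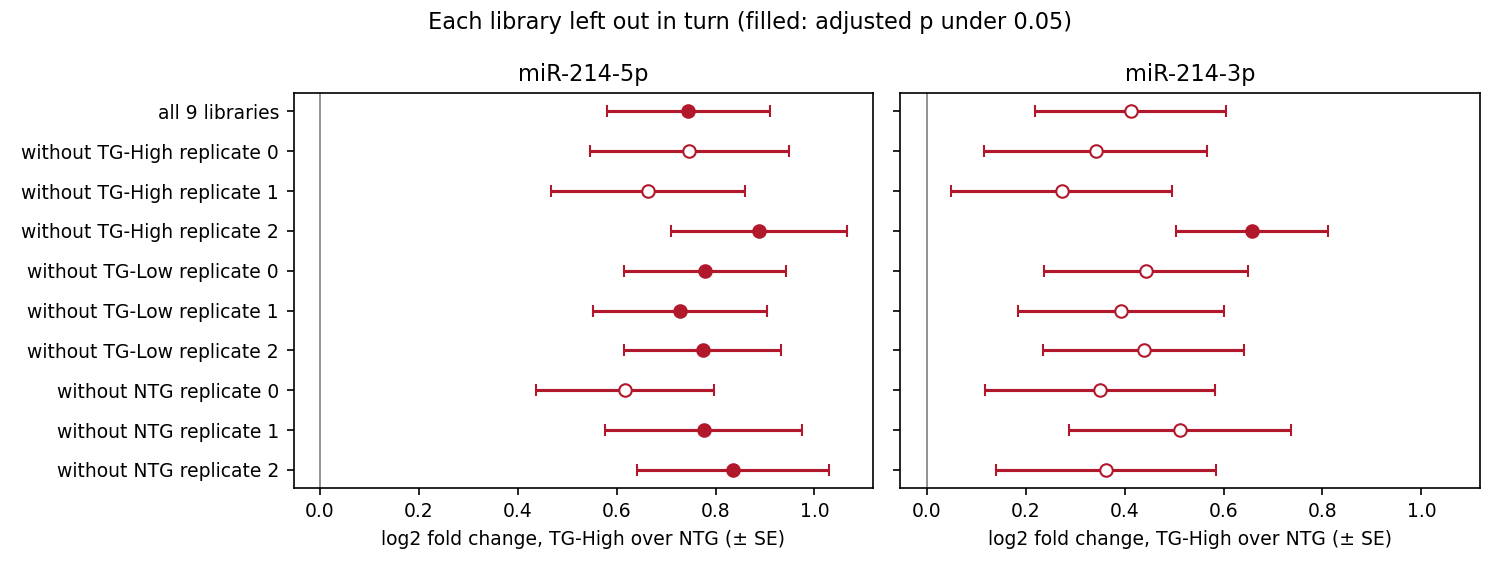
Log2 fold change in TG-High against NTG (horizontal axes, ± SE) of both miR-214 arms with all 9 libraries and with each library left out in turn, filled at an adjusted p under 0.05. miR-214-5p stays between 0.62 and 0.89, and miR-214-3p ranges from 0.27 to 0.66 and passes without TG-High replicate 2.

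The ratio of the arms within a library does not depend on scaling or depth. miR-214-5p made up 39.7%, 40.1% and 47.0% of the miR-214 counts in TG-High and 36.9%, 41.1% and 43.0% in TG-Low, against 33.6%, 34.3% and 40.8% in NTG. NTG replicate 2 lay among the transgenic libraries, and the other NTG libraries were the 2 lowest of the 9. The 95% Wilson interval was 44.4% to 49.7% for the highest library, TG-High replicate 2, and 31.6% to 35.6% for the lowest, NTG replicate 0. These intervals cover counting error only. The ratio of 5p to 3p counts averaged 0.739 ± 0.129 in TG-High, 0.679 ± 0.0866 in TG-Low and 0.572 ± 0.101 in NTG (SD, n = 3 each).

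The arm ratio of TG exceeded that of NTG by 0.31 on the log2 scale, and an exact two-sided permutation test over the 9 libraries gave p = 0.0952, where the smallest p it can give is 0.0238. The difference between the arms did not pass this test. Among 117 pairs of arms with at least 10 counts of each arm in every library, 24, miR-214 included, had a difference at least as large in the same direction. Some of the 117 mirror each other with the sign turned, so they are not all separate signals. Examples are miR-3065 (0.43) with miR-338 (-0.43) and miR-126b (0.25) with miR-126a (-0.25). The 5th percentile of the pairs was -0.58, the median 0.04 and the 95th percentile 0.53. In 6.84% of the pairs the ratio was higher in every transgenic library, and miR-214 was not among them. miR-214 is also 1 of 24 pairs whose mean ratio of 5p to 3p counts lay between 0.5 and 2.

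**Figure D4:**
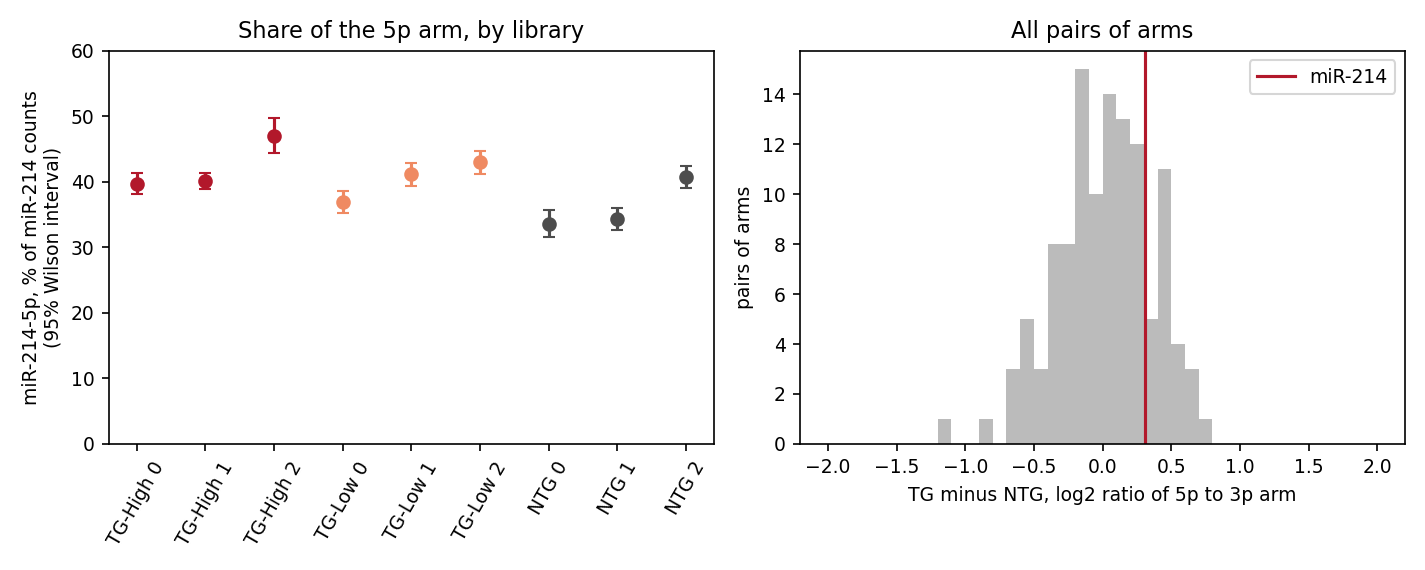
Left, share of miR-214 counts from the 5p arm (%) in each library with its 95% Wilson interval. Right, number of pairs of arms by the difference of the log2 ratio of 5p to 3p counts, TG minus NTG, for 117 pairs, with miR-214 marked at 0.31 inside the range of the other pairs.

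miR-199a-3p was at 21.0, 28.7 and 19.1 CPM in TG-High and at 13.7, 19.3 and 16.3 CPM in TG-Low, against 15.1, 16.8 and 15.8 CPM in NTG. All 3 TG-High libraries lay above NTG, as did 20% of all tested miRNAs, while TG-Low lay on both sides of NTG. The means were 23.0 ± 5.04 CPM in TG-High and 16.4 ± 2.78 CPM in TG-Low, against 15.9 ± 0.889 CPM in NTG (SD, n = 3 each). The log2 fold change was 0.54 ± 0.20 in TG-High against NTG (95% interval 0.11 to 0.97) and did not pass (edgeR adjusted p = 0.0820). It was 0.30 without TG-High replicate 1, the highest library. TG-Low against NTG had 0.05 ± 0.20 (adjusted p = 0.926), and -0.08 without TG-Low replicate 1. For TG against NTG it was 0.31 ± 0.21 (adjusted p = 0.332), and for TG-High against TG-Low 0.50 ± 0.20 (adjusted p = 0.510). As the mature sequence comes from hairpins on chromosomes 1, 2 and 9, these values do not show which hairpin the counts came from.

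miR-199b-5p comes from Mir199b on chromosome 2, away from the Dnm3os hairpins. It was at 488, 510 and 418 CPM in TG-High and at 413, 554 and 457 CPM in TG-Low, against 422, 495 and 364 CPM in NTG. The 3 groups overlapped throughout, and the highest library was TG-Low replicate 1. The means were 472 ± 47.8 CPM in TG-High and 474 ± 72.1 CPM in TG-Low, against 427 ± 65.5 CPM in NTG (SD, n = 3 each). No comparison passed: the log2 fold change was 0.15 ± 0.16 in TG-High against NTG (95% interval -0.21 to 0.50, edgeR adjusted p = 0.567) and 0.15 ± 0.16 in TG-Low against NTG (-0.20 to 0.50, adjusted p = 0.614). For TG against NTG it was 0.15 ± 0.14 (adjusted p = 0.510). For TG-High against TG-Low it was -0.01 ± 0.16 (adjusted p = 0.992), with a 95% interval of -0.36 to 0.34. This last value turned positive with DESeq2 size factors and with upper quartile scaling. With a library left out, the value ranged from 0.04 (without TG-High replicate 1) to 0.27 (without TG-High replicate 2) in TG-High against NTG. It ranged from 0.015 (without NTG replicate 2) to 0.27 (without NTG replicate 1) in TG-Low against NTG, and from 0.033 to 0.25 without the same NTG libraries in TG against NTG. The intervals with all libraries leave room for changes of up to about 0.50 on the log2 scale against NTG.

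Ratios between hairpins showed the same ordering of levels in all libraries. There were 1.49, 1.61 and 2.15 counts of miR-199b-5p for each count of miR-214-3p in TG-High and 1.77, 2.53 and 1.98 in TG-Low, against 2.16, 2.03 and 1.88 in NTG. TG-High replicates 0 and 1 had the 2 lowest ratios, and the third TG-High library lay in the NTG range. miR-199a-3p counts were 0.0484 ± 0.00695 of those of miR-199b-5p in TG-High, 0.0346 ± 0.0013 in TG-Low and 0.0378 ± 0.00504 in NTG (SD, n = 3 each). The ratio with miR-199a-3p also depends on how reads that match several hairpins were counted. All these ratios were chosen after the values were seen and were not tested.

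**Figure D5:**
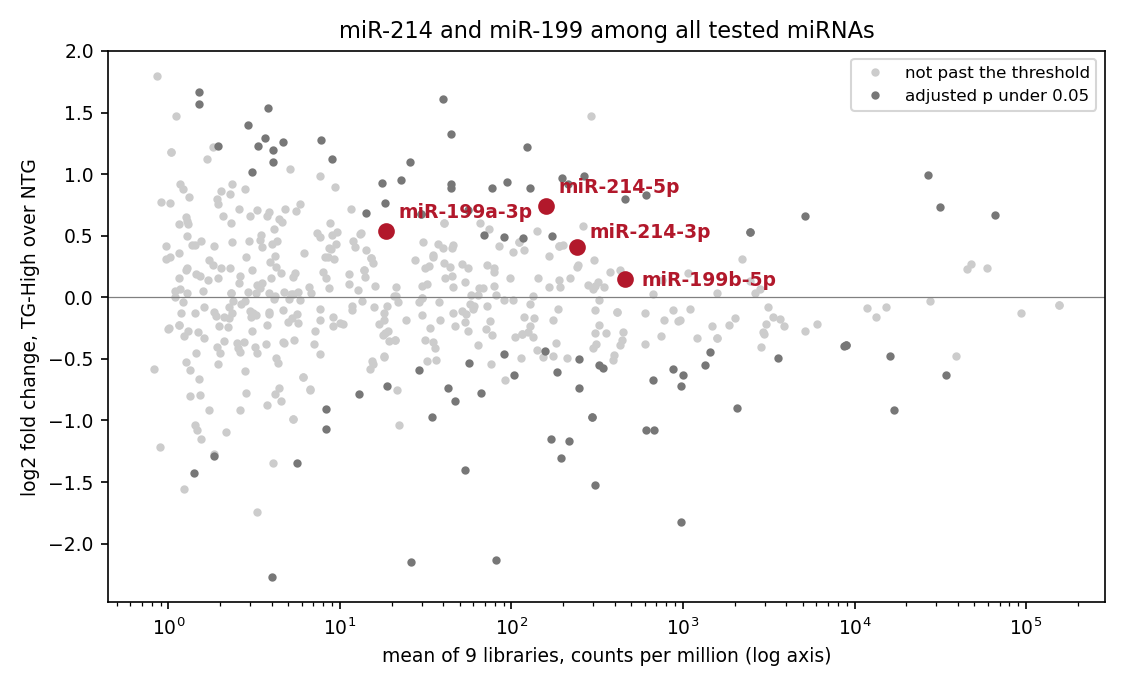
Log2 fold change of TG-High over NTG against the mean level over 9 libraries (CPM, log axis) for 509 tested miRNAs, dark grey at an adjusted p under 0.05, with the 4 rows in red. All 4 lie above 0, from 0.15 to 0.74, within the range of other miRNAs of like level.

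Over the 9 libraries the 4 rows varied together to different degrees, given here as a description since the libraries share scaling and group differences. Pearson's r of log2 CPM was 0.72 between the miR-214 arms (Spearman's rho 0.52) and 0.76 between miR-214-5p and miR-199a-3p (rho 0.72). It was lowest, at 0.42, between miR-214-5p and miR-199b-5p (rho 0.33). After each group's mean was taken away, the arms of miR-214 had an r of 0.56, and the highest r, 0.72, was between miR-199a-3p and miR-199b-5p.

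Among 505 other tested rows, the pattern most like that of miR-214-5p was that of miR-301a-3p (r = 0.93, rho 0.97 over 9 libraries), followed by miR-3074-2-3p and miR-24-2-5p (r = 0.91 each), whose rows carry near-identical counts. For miR-214-3p the most alike were miR-223-5p (r = 0.91), miR-449a-5p (0.86) and miR-98-3p (0.82), rows with a mean level of 17.5, 2.78 and 5.55 CPM. Those of miR-199a-3p were miR-574-3p (r = 0.88), miR-1983 (0.80) and miR-298-5p (0.79). Those of miR-199b-5p were miR-98-5p (r = 0.85), miR-702-3p (0.84) and miR-7680-3p (0.77), of which the last 2 are at 1.16 and 0.968 CPM. Without the 2 libraries farthest from the member's median, r rose to 0.95 for miR-301a-3p and 0.89 for miR-7680-3p. It fell for all the others, the most for miR-298-5p (0.42) and miR-702-3p (0.53). These 12 rows are the highest of many compared and carry no test. None of the 12 is a member of the companion list below, while miR-24-2-5p belongs to the fibrosis list and miR-223-5p to the leukocyte list.

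Other miRNAs known from fibroblasts and mesenchymal cells were read from a list of 8 names with 16 tested rows. In TG-High against NTG, miR-455-5p, from an intron of the collagen gene Col27a1, rose by 0.98 ± 0.18 on the log2 scale (edgeR adjusted p = 0.00484), and miR-31-3p rose by 1.26 ± 0.24 (adjusted p = 0.00569). Both arms of miR-335, from an intron of the imprinted gene Mest, fell, miR-335-5p with -1.31 ± 0.19 (adjusted p = 0.00155) and miR-335-3p with -1.15 ± 0.18 (adjusted p = 0.00161). The other 12 rows did not pass. The 4 are 25% of the list, where 18.3% of all tested miRNAs passed, and the median over the list was 0.10, where that of all tested rows was -0.01. The partner arms miR-455-3p (0.08) and miR-31-5p (0.16) did not pass. In TG against NTG miR-455-5p and miR-31-3p were higher and 0 rows lower, 12.5% of the list against 8.64% of all tested miRNAs. In TG-High against TG-Low both arms of miR-335 were lower, 12.5% of the list against 1.38% of all tested miRNAs. In TG-Low against NTG edgeR and DESeq2 each called 0 of the 16, against 1.57% and 6.38% of the rows they tested. There 3 of the 16 had an unadjusted edgeR p under 0.05, as did 88 of all 509 tested miRNAs.

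Of 31 rows of a list of miRNAs described in matrix deposition and fibrosis, 4 rose and 5 fell in TG-High against NTG, which is 29.0% of the list, where 18.3% of all tested miRNAs passed. The median was -0.27, against -0.01 over all tested rows. Those that rose were both arms of miR-21a, known in mouse to promote fibroblast signalling in the stressed heart, together with the 5p arms of miR-24-1 and miR-24-2. miR-21a-5p rose by 0.99 ± 0.11 (edgeR adjusted p = 0.000724). Those that fell were miR-155-5p (-1.17), miR-30a-3p (-0.45), miR-101a-3p (-0.39), miR-29b-2-5p (-0.72) and miR-29c-3p (-0.55). The 3p arms of miR-29 share a seed and are known to target collagens, and of these miR-29a-3p (-0.08, edgeR adjusted p = 0.687) and miR-29b-3p (0.19, adjusted p = 0.792) did not pass. The row of miR-29b-3p held only 9, 16 and 9 counts in TG-High and 7, 12 and 16 in NTG. With an SE of 0.41, its value says little about a change. miR-29b-2-5p is an opposite arm. In TG against NTG 3 rose (miR-21a-5p and both 5p arms of miR-24) and 2 fell (miR-155-5p and miR-30a-3p). That is 16.1% of the list, where 8.64% of all tested miRNAs passed. In TG-Low against NTG miR-24-1-5p rose, 3.23% of the list against 1.57% of all tested miRNAs. In TG-High against TG-Low miR-21a-5p rose, 3.23% of the list against 1.38% of all tested miRNAs.

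Among markers of other cells of the ventricle, edgeR called 0 rows of the 5 lists in TG against NTG and in TG-Low against NTG. In these comparisons 8.64% and 1.57% of all tested miRNAs passed. DESeq2 called 1 of the 3 erythroid rows in TG against NTG, against 13.4% of all rows. In TG-High against TG-Low, where 1.38% of all tested miRNAs passed, edgeR called miR-451a, miR-144-3p, miR-150-5p and miR-499-5p, all lower. These were 66.7% of the erythroid, 16.7% of the leukocyte and 10% of the cardiomyocyte rows. In TG-High against NTG, where 18.3% of all tested miRNAs passed, edgeR called 10% of the cardiomyocyte rows and 100% of the erythroid rows. It called 50% of the leukocyte, 50% of the endothelial and 25% of the smooth muscle and pericyte rows there, in lists of few rows. The summed level of 11 cardiomyocyte rows was 13195 to 16868 CPM in TG-High and 19633 to 23344 CPM in TG-Low, against 22666 to 26623 CPM in NTG, and 1 of 10 tested rows fell in TG-High against NTG (miR-499-5p, from a myosin gene). That row makes up most of the sum, with 9887 to 13557 CPM in TG-High and 16102 to 20036 CPM in TG-Low, against 19677 to 23855 CPM in NTG. The other 9 tested rows summed to 3008 to 3311 CPM in TG-High and 3304 to 3530 CPM in TG-Low, against 2702 to 2988 CPM in NTG, and the median log2 fold change of the 10 was 0.10 in TG-High against NTG, with 6 above 0. These rows weigh unequally in the sum. miR-208a-3p held 10027 to 29178 counts per library and miR-208b-3p 229 to 9295. miR-1a-3p held 519 to 1363 and miR-133a-3p only 5 to 15, so the sum says little about these miRNAs. The 3 erythroid rows summed to 516 to 644 CPM in TG-High and 926 to 1791 CPM in TG-Low, against 1552 to 2413 CPM in NTG, and all 3 fell in TG-High (miR-451a and both arms of miR-144). The 6 leukocyte rows summed to 999.5 to 1050 CPM in TG-High and 1145 to 1464 CPM in TG-Low, against 1310 to 1385 CPM in NTG. Both arms of miR-150 fell and miR-223-5p rose in TG-High against NTG. The median log2 fold change of the 6 was 0.20 there, with 3 above 0. The abundant miR-150-5p had -1.08, while miR-142a-3p (0.41), miR-223-3p (0.42) and miR-142a-5p (-0.02) did not pass. The summed levels of endothelial and of smooth muscle and pericyte miRNAs overlapped between the groups. The 4 endothelial rows (miR-126a and miR-126b) summed to 310597 to 321993 CPM in TG-High and 283563 to 400811 CPM in TG-Low, against 298323 to 380954 CPM in NTG, and miR-126a-5p and miR-126b-3p fell in TG-High against NTG by edgeR, where DESeq2 called 0. These rows carry near-identical counts (within 0.0026 on the log2 scale), as do miR-126a-3p and miR-126b-5p, so they are 1 signal and the sum counts each signal 2 times. Both arms of miR-126a alone summed to 155292 to 160989 CPM in TG-High and 141771 to 200396 CPM in TG-Low, against 149156 to 190468 CPM in NTG. The 4 smooth muscle and pericyte rows (miR-143 and miR-145a) summed to 82417 to 95706 CPM in TG-High and 91655 to 124869 CPM in TG-Low, against 82474 to 106215 CPM in NTG, and miR-145a-3p fell in TG-High against NTG. None of the rows of the 5 marker lists was at 0 in any library. The part of these differences in the values of miR-214-5p was not tested.

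The letters TGACNNNGC, the core of the antioxidant response element that Nrf2 binds, were searched on both strands of the Dnm3os promoter window, from 250 bases before to 50 bases after the gene's start. The window holds 0 matches, and 12.4% of 32851 RefSeq promoter windows of the same length hold at least 1. This says only that these letters are not in this window.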

How the data were processed

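Left ventricular total RNA went into TruSeq libraries, per the labels' protocols. Tools in the submitters' processing notes are Novoalign, SAMtools, Trim Galore 0.4.0, bcl2fastq 1.8.4 and DESeq2 1.18.1, with build mm10 (GRCm38). The sources used here do not give the counting tool, strand or miRNA annotation. The deposited table holds raw read counts per mature miRNA. The authors also deposited a mean normalized signal, a log2 fold change of TG over NTG, its standard error and Wald statistic as scores, and p-values.

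From the counts, edgeR's quasi-likelihood test (edgeR 4.0.16, limma 3.58.1, R 4.3.3) was run over the whole table, with TMM scaling, a minimum count of 10 (filterByExpr, 509 rows kept, 112 left out) and Benjamini-Hochberg adjustment over the rows tested, called at 0.05. TG against NTG used 2 groups and the other comparisons a model of 3 groups. The arm ratio used an exact permutation test (scipy 1.17.1), where 1 of the ratios planned could be formed. Fits were tested on simulated data. Likeness was measured on log2 CPM (prior count 2). Sequences and promoter windows come from RefSeq, and 544 of the 621 rows matched a mature sequence. Overlapping genes come from GENCODE M21. Totals summed over all rows were 3620465 to 11695744 counts per library, and Wilson intervals are 95% and cover counting error only.

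The miRNAs described and the lists were chosen with earlier results of these data known. Named are all 4 rows, list rows that passed in any comparison, the first of each marker list and the 3 rows most like each. Alternatives were other scalings, DESeq2 1.42.0, no filter, other sample sets, a replicate block and each library left out.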

Additional observations from a re-analysis of the deposited data

How the results depend on the processing

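Of 269 values of 17 results under other settings, 249 kept their direction and their side of the threshold. For TG against NTG, miR-214-5p passed with DESeq2's Wald test (0.56) and with the 3-group model (0.56), and its log2 fold change ranged from 0.45 to 0.64 with each library left out, past the threshold without TG-Low replicate 0 or TG-Low replicate 2. For TG-High against NTG it ranged from 0.62 to 0.89, and miR-214-3p from 0.27 to 0.66. miR-199a-3p in TG-Low against NTG ranged from -0.0808 to 0.17, negative without TG-Low replicate 1. miR-199b-5p in TG-High against TG-Low, near 0, turned positive with DESeq2 size factors (0.0036), upper quartile scaling (0.0302), DESeq2's Wald test (0.0050), no filter (0.0064), without the 5 most abundant rows (0.013) and with the compared groups only (0.0051), and ranged from -0.10 to 0.12 with each library left out. The arm ratio of miR-214 ranged from 0.23 to 0.45 with each library left out. The cause of these changes was not tested.

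The counts of all called miRNAs moved by over 1.5 times under the following settings. In TG against NTG the count was 44, with 83 by DESeq2's Wald test, 75 with the 3-group model and 14 to 108 with a library left out. In TG-High against NTG the count was 93, and 37 to 114 with a library left out. In TG-Low against NTG it was 8, with 38 by DESeq2, 21 with no filter, 2 with the compared groups only and 0 to 18 with a library left out. In TG-High against TG-Low it was 7, with 36 by DESeq2, 25 with no filter and 0 to 10 with a library left out.

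Correlations of deviations from the group means ran from -0.17 to 0.23 between libraries with the same number. Between libraries with different numbers they ran from -0.20 to 0.18. The highest was that of TG-Low replicate 0 and NTG replicate 0. The libraries were not treated as paired by number, and whether a number marks a batch is not known. With the replicate number as a block, miR-214-5p had 0.58 in TG against NTG (edgeR adjusted p = 0.0853) and 0.76 in TG-High against NTG (adjusted p = 0.0172), and the block changed no call of the 4 rows. Within numbers the arm ratio differed by 0.31 (exact sign-flip p = 0.25, the smallest that 3 pairs allow).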

Other observations

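Among the 117 pairs of arms, 8 had a higher 5p to 3p ratio in every transgenic library than in any NTG library and 6 a lower one. These pairs were chosen after their values were seen. Of 22 pairs of miRNAs of the lists, 3 were among the 8 and 2 among the 6. For miR-455 the log2 ratio was higher in TG than in NTG by 0.80, for miR-29c by 0.66 and for miR-152 by 0.56. For miR-144, an erythroid miRNA, the difference of TG minus NTG was -0.58, and for miR-208a, from a heart myosin gene, it was -0.56. These 5 pairs were picked because their groups do not overlap. The exact permutation test must then give the smallest p that 6 against 3 libraries allow, 0.0238, so that p adds no support. No pair passed after Benjamini-Hochberg adjustment over the 117, although 32 pairs had an unadjusted p under 0.05 (lowest adjusted p 0.174). Some of these 32 mirror each other and are 1 signal. The log2 ratio of miR-31 differed by -0.84, TG minus NTG, and overlapped between the groups.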
